A study of Rattus norvegicus with 16 samples.

Results

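CA3 pyramidal cells are the targets of the mossy fibres, and the granule cells of the dentate gyrus (DG) send them out. The CA3 pyramidal layer and the DG granular layer were compared here by their RNA. The libraries were chosen by their labelled subfield, which gave 4 CA3 and 4 DG libraries, 8 of the 16 of the series. Both layers came from untreated male Wistar rats aged 3 months, and the other 8 libraries are the pyramidal layers of CA1 and CA2. The layers were cut out of stained brain sections by laser capture microdissection, by their position and shape and not by a marker gene, and total RNA was sequenced. The question was which genes set the receiving layer apart from the sending layer, above all where CA1 and CA2 did not differ from DG.

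The mossy fibre is the axon of the granule cell. Its large endings release glutamate, zinc and opioid peptides onto the thorny spines of CA3 dendrites, and the synapse is known for strong facilitation and for a form of long-term potentiation that is expressed on the presynaptic side and needs cyclic AMP. Granule cells are kept in their identity by the homeobox protein Prox1, whereas CA3 pyramidal cells arise from the ammonic neuroepithelium together with those of CA1 and CA2. A layer cut from tissue holds interneurons, glia and vessels beside its principal neurons, so that fewer cells of a type and less RNA per cell cannot be told apart in any of the values below.

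The 4 CA3 libraries held 8116280, 11933279, 11712968 and 6587243 counts on genes in replicates 1 to 4, and the DG libraries 4706523, 9262214, 7579986 and 5473030. DG replicates 2 and 4 were nearly the same library. Their counts differed over 12602 genes by a chi-square of 1.04 per degree of freedom (chi-square test, p = 0.00271), where 1 is what sampling noise gives, and for CA2 replicates 2 and 4 the value was 0.9995 (p = 0.515). The other 22 pairs of libraries within a subfield gave between 2.96 and 47.2. Each near-identical pair was therefore summed and counted as 1 sample, which left 4 CA3 and 3 DG samples among 14. Levels are given in CPM, counts relative to the total of the library corrected by the trimmed mean of M-values (TMM), and they can be compared between libraries for a gene but not between genes, since gene lengths were not used. For a gene without a count the true value may be up to 3 counts, which came to 0.195 to 0.546 CPM in the CA3 and DG samples. This limit covers counting error only.

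Of the CA3 libraries, 3 stood apart, each in another way. CA3 replicate 3 differed most from the others, with a chi-square per degree of freedom between 18.6 and 47.2 against 7.69 to 16.6 among the other 3, and the gene with the most counts took 26.3% of all counts against 15.9%, 17.5% and 20.9%. Genes that mark DG were not raised in it. They were raised in CA3 replicate 4, where 226 genes that the study chose as DG markers summed to 1672 CPM, against 1112, 1332 and 1229 CPM in replicates 1 to 3 and 11591 to 12573 CPM in DG. Of these 226 genes, 110 had their highest CA3 value in replicate 4, 52 in replicate 2, 33 in replicate 3 and 31 in replicate 1. In each CA3 library Sema5a took the most counts of them, without regard to gene length, and 27 of them had no count in replicate 4. CA3 replicate 2 held raised CA1 genes, with 336 CPM over 34 CA1 markers against 122.7, 146 and 128 CPM in the other 3, and Wfs1 took the most counts of them there. Of the 34 genes 4 were at 0 there. Where these genes came from was not tested. Values without 1 of these libraries are given for several genes whose log2 fold change depended on it.

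**Figure D1:**
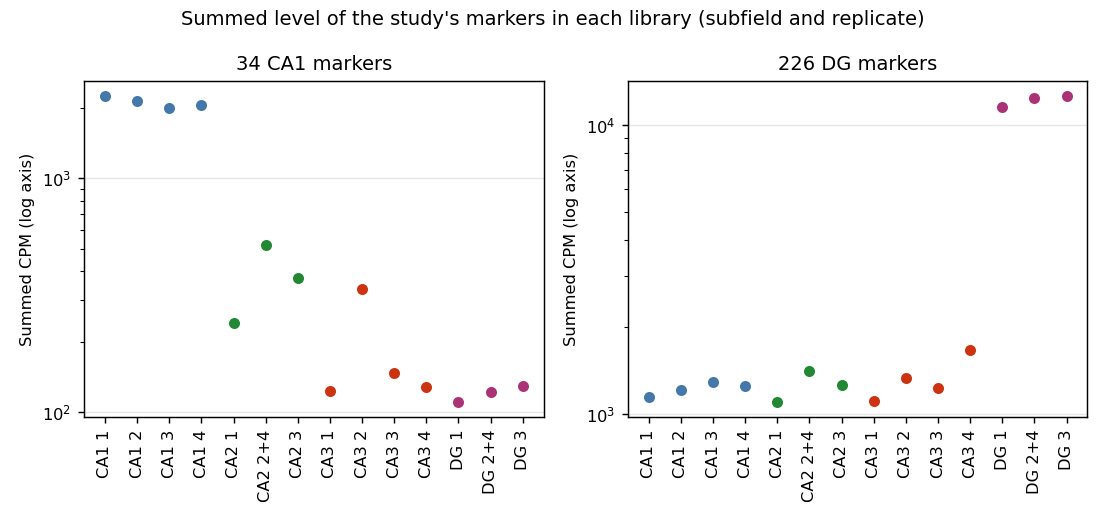
Summed CPM (log axis) of 34 CA1 markers (left) and 226 DG markers (right) in each of the 14 samples, named by subfield and replicate, with 2+4 for a summed pair. CA3 replicate 2 stands at 336 CPM for the CA1 markers and CA3 replicate 4 at 1672 CPM for the DG markers, both above the other CA3 samples.

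CA3 and DG differed in a large part of their genes. By edgeR's quasi-likelihood test in a fit to all 4 subfields, 6911 of 17174 genes tested (40.2%) differed at a Benjamini-Hochberg adjusted p under 0.05, of which 3534 (20.6% of the genes tested) were higher in CA3 and 3377 (19.7%) higher in DG. Most differences were small, since 4109 of the 6911 genes (59.5%) differed by less than 2-fold. A difference past 4-fold was found for 530 genes higher in CA3 and 587 higher in DG, and one past 16-fold for 128 and 118. Every CA3 sample lay above every DG sample for 3233 of the 3534 genes, and below for 3014 of the 3377. Without regard to the test, 21.5% of all genes had every CA3 sample above every DG sample and 21.1% had the opposite order. The median log2 fold change of CA3 over DG was -0.01 over all genes. The count of 6911 became 6304 without CA3 replicate 3, of which 6086 were called with it as well, 6629 without replicate 4 (6385 in common) and 6445 without replicate 2 (6178 in common).

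**Figure D2:**
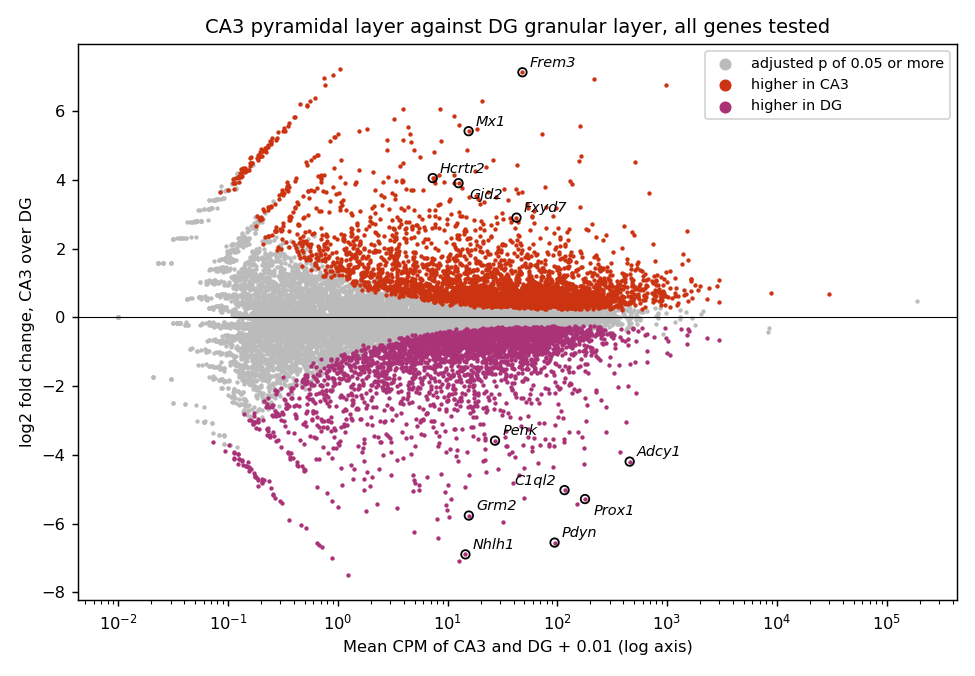
The log2 fold change of CA3 over DG (vertical axis) against the mean CPM of both layers plus 0.01 (log axis) for the 17174 genes tested, 1 point per gene. Red points are the 3534 genes higher in CA3, purple points the 3377 higher in DG, grey points the rest. Frem3 lies near the top at 7.14 and Nhlh1 near the bottom at -6.90.

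The files name genes by Ensembl identifier, and symbols could be paired with 288 of them only, through the study's own list of markers. The study describes that list, drawn from these same libraries, as genes past 4-fold in a subfield against each other subfield. It holds 226 genes for DG, 14 for CA3, 34 for CA1 and 14 for CA2, and for the CA3 and DG genes the direction was fixed by the choice. As a description, 225 of the 226 DG genes were higher in DG and Unc13c alone was not called, with a median log2 fold change of -3.33 (-3.22 with the 6 genes at 0 in CA3 placed at their bound). All 14 CA3 genes were higher in CA3, at a median of 4.02 (3.96 with the gene at 0 in DG at its bound). Neither count is independent evidence. Of the 530 and 587 genes past 4-fold, 26 and 224 have a symbol, so that the strong genes of CA3 are mostly nameless here. The markers of interneurons, mossy cells, glia and vessels had no paired identifier and were not analysed here.

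The transcription factors that mark granule cells lay far apart between the layers. Prox1, which holds granule cells to their fate, had 283, 366 and 395 CPM in the DG samples and 3.21, 9.76, 4.97 and 19.1 CPM in the CA3 samples. Every DG sample was above every CA3 sample, and the highest CA3 value was that of replicate 4. The log2 fold change was -5.29 ± 0.35 (SE), with an adjusted p of 1.51e-10, and -5.82 without CA3 replicate 4, in a range of -6.40 to -5.04 over the alternatives. Nhlh1, a basic helix-loop-helix factor of the nervous system, had 34.6, 22.5 and 29.5 CPM in DG against 0, 0.432, 0.106 and 0.324 CPM in CA3. It was close to the limit of detection in CA3, at a log2 fold change of -6.90 ± 0.45 (SE), with an adjusted p of 9.63e-10. Without CA3 replicate 2 it was -7.66, and the alternatives spanned -8.66 to -6.25. The homeobox factor Mkx stood at 20.7 ± 1.15 CPM (SD, n = 3) in DG and 0.596 ± 0.448 CPM (SD, n = 4) in CA3, the regulatory factor X protein Rfx3 at 333 ± 70.1 CPM (SD, n = 3) and 17.7 ± 7.91 CPM (SD, n = 4), and the zinc finger factor Tshz1 at 32.1 ± 5.88 CPM (SD, n = 3) and 5.84 ± 1.18 CPM (SD, n = 4). Of 46 transcription factors listed for neurons 5 were paired. Prox1, Rfx3 and Tshz1 were higher in DG, as were 19.7% of all genes, and as DG markers of the study their direction was fixed by the choice. The other 2, Ldb2 among them, were called higher in CA3, as were 20.6% of all genes.

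Of 16 genes listed for granule cell identity 8 were paired with an identifier, and all 8 were higher in DG, as were 19.7% of all genes, at a median log2 fold change of -3.82 against -0.01 over all genes. They are all among the study's DG markers, so that this is no independent evidence of direction. Beside Prox1, Rfx3 and C1ql2 they were Trpc6, a calcium-permeable channel (-3.08), Stxbp6, a binding partner of the release machinery (-3.06), Plk5, a polo-like kinase (-4.18), Glis3, a zinc finger factor (-3.46), and the desmosomal protein desmoplakin, Dsp (-2.60). Trpc6 had 141, 139 and 125 CPM in DG and 13.2, 16.9, 14.3 and 19.8 CPM in CA3. It was thus present in both layers at these depths, with all DG samples above all CA3 samples. Dsp stood at 9.42 ± 1.03 CPM (SD, n = 3) in DG and 1.52 ± 0.425 CPM (SD, n = 4) in CA3. Of the 14 genes listed for CA3 pyramidal identity Fxyd7 alone was paired, and it was higher in CA3.

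The opioid peptides of the mossy fibres were both higher in DG, Pdyn by more than Penk. Pdyn, which encodes prodynorphin, the precursor of the dynorphins, had 221, 170.0 and 169 CPM in DG and 1.24, 1.30, 0.634 and 5.83 CPM in CA3. Here too CA3 replicate 4 was the highest of its group, and the groups did not overlap. The log2 fold change was -6.56 ± 0.34 (SE), with an adjusted p of 4.07e-12, and -7.44 without CA3 replicate 4, in a range of -7.65 to -6.01 over the alternatives. Penk, the precursor of the enkephalins, had 47.5, 56.7 and 45.5 CPM in DG and 3.58, 5.01, 2.54 and 5.67 CPM in CA3, a log2 fold change of -3.59 ± 0.19 (SE), with an adjusted p of 6.73e-12. The mean of Penk was 4.90 ± 0.856 CPM (SD, n = 4) in CA1, 6.73 ± 1.08 CPM (SD, n = 3) in CA2 and 4.20 ± 1.41 CPM (SD, n = 4) in CA3, and CA3 was not called different from CA1 (log2 fold change -0.20 ± 0.22 SE, adjusted p = 0.553) or CA2 (-0.68 ± 0.22 SE, adjusted p = 0.0703). These tests used no replicate block. Each CA3 sample lay below the same-numbered samples of CA1 and CA2, with the summed CA2 pair standing for replicates 2 and 4. Cartpt, which encodes the CART peptides, varied within DG, with 1.27, 10.9 and 8.38 CPM, and had 0, 0.345, 0.106 and 0 CPM in CA3. The lowest DG sample was still above the highest CA3 sample, at a log2 fold change of -5.56 ± 0.67 (SE), with an adjusted p of 9.22e-07. Without CA3 replicate 2 it was -7.01, and over all alternatives it lay between -7.01 and -4.39. Cartpt was chosen for description after its values were seen.

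Genes of the presynaptic side and of the synaptic cleft followed. Of 49 genes listed as mossy fibre transmitters and presynaptic proteins 6 were paired, and 5 of them (Penk, Grm2, Pdyn, C1ql2 and Adcy1) were higher in DG against 19.7% of all genes, at a median of -4.61 over the 6. All 6 are again DG markers of the study. Grm2, the metabotropic glutamate receptor that dampens release at mossy fibre endings, had 30.8, 30.6 and 30.4 CPM in DG and 0.124, 0.432, 0.211 and 1.78 CPM in CA3. The DG samples were almost equal, and CA3 lay near the limit of detection except in replicate 4. Its log2 fold change was -5.77 ± 0.40 (SE), with an adjusted p of 2.88e-10, and -6.74 without CA3 replicate 4. Adcy1, the calcium-stimulated adenylyl cyclase, had 761, 892 and 943 CPM in DG and 22.7, 52.3, 41.1 and 73.4 CPM in CA3, a log2 fold change of -4.20 ± 0.25 (SE), with an adjusted p of 2.89e-11. Syt10, a synaptotagmin of secretory vesicles, had 17.1, 25.3 and 18.0 CPM in DG and 0.124, 0.259, 0 and 1.30 CPM in CA3, a log2 fold change of -5.82 ± 0.47 (SE), with an adjusted p of 3.19e-09, and -7.08 without CA3 replicate 4. Over the alternatives Syt10 lay between -8.16 and -4.61, Grm2 between -7.38 and -5.48.

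C1ql2, a secreted C1q-like protein of mossy fibre endings that binds kainate receptors on the CA3 side, had 269, 184 and 224 CPM in DG and 6.55, 7.77, 5.29 and 8.10 CPM in CA3. CA3 did not reach 0, and its 4 samples lay close together at a log2 fold change of -5.03 ± 0.29 (SE), with an adjusted p of 1.87e-11. Lrrtm4, a postsynaptic adhesion protein of granule cell dendrites, was picked after its values were seen and had 214, 196 and 194 CPM in DG against 21.3, 30.5, 25.9 and 27.4 CPM in CA3, a log2 fold change of -2.94 ± 0.13 (SE), with an adjusted p of 4.49e-13.

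Unc13c was the exception among the DG markers, and its difference here was below the 4-fold of the study's choice. It encodes Munc13-3, a vesicle priming protein, and had 25.5, 26.4 and 33.3 CPM in DG and 18.0, 5.87, 26.2 and 19.0 CPM in CA3. The groups overlapped, and CA3 replicate 2, the sample with raised CA1 genes, was far below the other CA3 samples. The log2 fold change of CA3 over DG was -0.73 ± 0.30 (SE) and did not pass the test (adjusted p = 0.0548). Without CA3 replicate 2 it was -0.42 (adjusted p = 0.110), without CA3 replicates 2 and 4 -0.37 (adjusted p = 0.238) and without CA3 replicate 3 -1.03 (adjusted p = 0.0111). Over all 24 alternatives its adjusted p lay between 0.00323 and 0.238, and 9 of them called it. Both fits with the replicate block were among these (log2 fold changes -0.90 and -0.51). Against CA1 (1.31 ± 0.600 CPM, SD, n = 4) and CA2 (1.45 ± 0.268 CPM, SD, n = 3) it was higher in CA3, with log2 fold changes of 3.74 ± 0.40 (SE) and 3.53 ± 0.43 (SE) and adjusted p of 4.31e-07 and 8.81e-06.

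Receptors and channels of the granule cell membrane made up a further group. Gabrd, the delta subunit of GABA-A receptors outside the synapse, was the paired gene of 15 GABA receptors listed, with 73.0, 60.3 and 70.1 CPM in DG and 2.97, 6.995, 1.90 and 5.02 CPM in CA3 (log2 fold change -3.97 ± 0.24 SE, with an adjusted p of 2.63e-11, range over the alternatives -4.81 to -3.72). Grik3, a kainate receptor subunit, had 19.7 ± 1.996 CPM (SD, n = 3) in DG and 3.10 ± 0.748 CPM (SD, n = 4) in CA3. Together with Grm2 and Cacng5, a regulatory protein of AMPA receptors, it was 1 of 3 paired genes among 38 glutamate receptor genes listed. Cacng5 went the other way, with 1.73, 1.55, 3.17 and 3.40 CPM in CA3 and 0.182, 0.584 and 0.479 CPM in DG, and was highest in CA2 at 53.2 ± 8.19 CPM (SD, n = 3). The dopamine receptor gene Drd1 had 9.11, 8.83 and 9.22 CPM in DG and 1.11, 1.30, 1.16 and 0.972 CPM in CA3, a log2 fold change of -2.95 ± 0.23 (SE), with an adjusted p of 1.73e-09.

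The 3 paired voltage-gated potassium channels, of 42 listed, were all higher in DG, as were 19.7% of all genes. All 3 are DG markers of the study, so that their direction was fixed by the choice. Kcnc4, which encodes Kv3.4, a channel that shapes the spike in mossy fibre endings, had 63.9, 54.9 and 66.8 CPM in DG and 9.64, 7.60, 10.8 and 7.94 CPM in CA3 (log2 fold change -2.78 ± 0.15 SE, with an adjusted p of 9.21e-12). Kcna3 had 29.5 ± 1.22 CPM (SD, n = 3) in DG and 4.53 ± 0.914 CPM (SD, n = 4) in CA3. Kcna5 was at 3.32 ± 0.356 CPM (SD, n = 3) in DG and below the worth of 3 counts in every CA3 sample. Their median log2 fold change was -2.78. Kcnj2, an inward rectifier and the paired gene of 25 other potassium and HCN channels listed, had 15.8 ± 1.74 CPM (SD, n = 3) in DG and 1.84 ± 0.286 CPM (SD, n = 4) in CA3. In each of these channels every DG sample was above every CA3 sample.

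Adhesion and guidance genes of DG were also found in CA3 at a lower level. Cdh13, a cadherin held to the membrane by a lipid anchor, had 358, 307 and 318 CPM in DG and 20.5, 24.0, 21.1 and 29.3 CPM in CA3 (log2 fold change -3.79 ± 0.13 SE, with an adjusted p of 7.61e-14). The other paired gene of 19 cadherins listed, Cdh6, was called higher in CA3 at 0.87 ± 0.32 (SE) (adjusted p = 0.0343). That call was lost when CA3 replicate 2 (0.64), CA3 replicate 4 (0.87), both, DG replicate 1 (0.65) or DG replicate 3 (0.88) was left out. Unc5d, a netrin receptor and the paired gene of 46 listed for mossy fibre adhesion and guidance, had 205, 241 and 227 CPM in DG and 49.4, 46.5, 42.1 and 57.4 CPM in CA3. Sema5a, a semaphorin, had 625, 760.2 and 733 CPM in DG and 139, 181, 157 and 229 CPM in CA3, with adjusted p of 9.78e-10 and 6.32e-10 for these 2 genes. The mean of DG was 4.59-fold and 3.99-fold that of CA3. Their gap was narrower than that of the peptides, and all DG samples were above all CA3 samples. Ntf3, which encodes neurotrophin-3, had 41.1 ± 6.68 CPM (SD, n = 3) in DG and 2.84 ± 0.0632 CPM (SD, n = 4) in CA3, and Btg2, an antiproliferative immediate early gene, had 39.2 ± 1.70 CPM (SD, n = 3) and 5.81 ± 1.41 CPM (SD, n = 4). They were the paired genes of 17 steroid receptors and neurotrophins and of 21 immediate early genes listed.

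**Figure D3:**
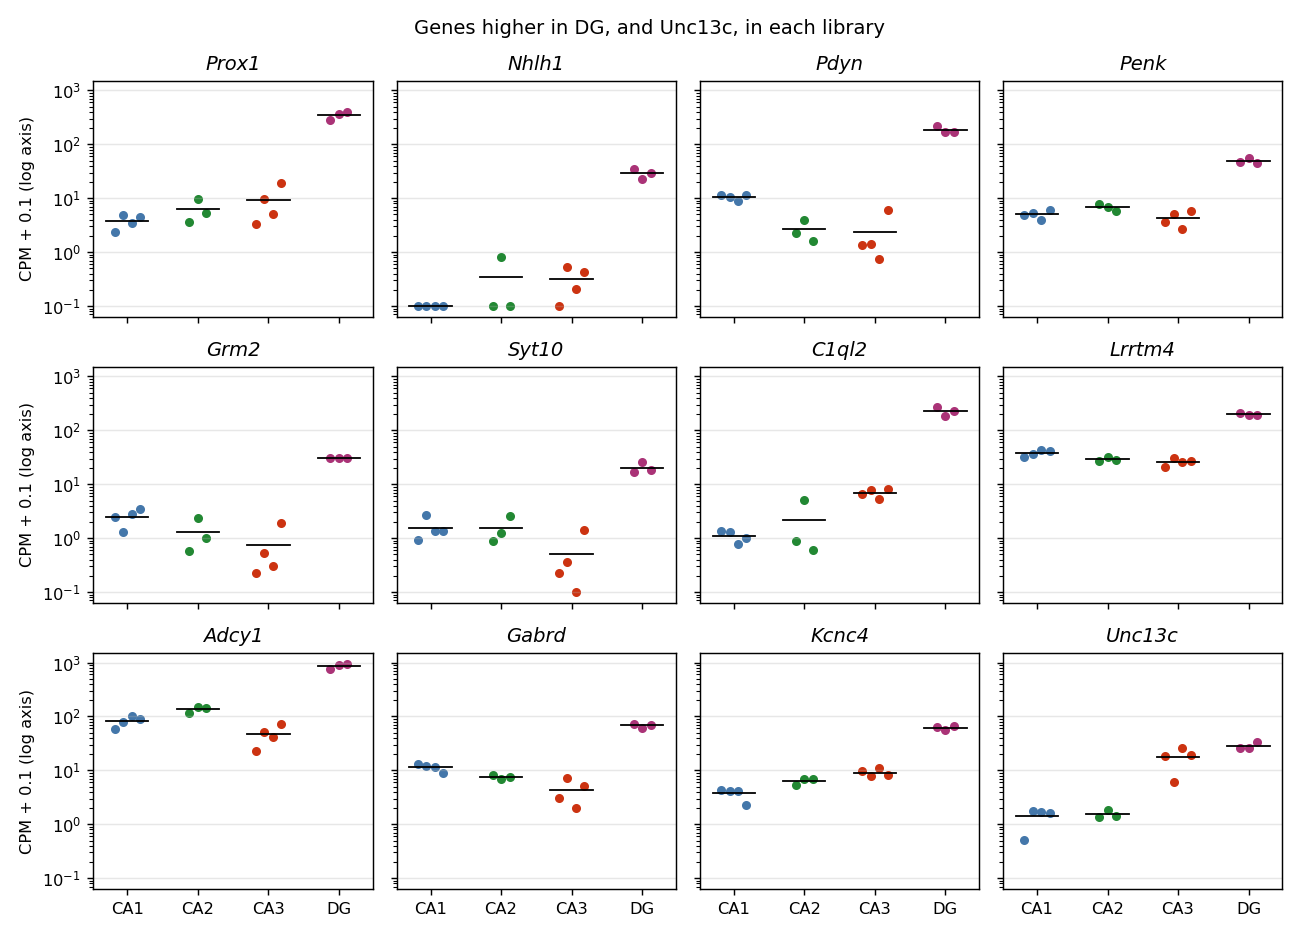
CPM plus 0.1 (log axis) of 12 genes in each of the 14 samples by subfield, 1 point per sample, with the mean as a black line. For 11 genes the DG samples stand above all CA3 samples, as for Pdyn at 221, 170.0 and 169 CPM, and for Unc13c the CA3 and DG samples overlap.

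Of 93 named genes higher in DG that had at least 20 CPM in DG, no overlap of samples and a call without CA3 replicate 3 as well, the 12 with the largest log2 fold change include, beside Nhlh1, Pdyn, Syt10, Grm2, Prox1, Mkx and C1ql2, the genes AABR07060341.2 (-7.08), Mgam (-5.94), Plekha2 (-5.25), Zdhhc22 (-4.93) and Rsph10b (-4.83). Mgam encodes maltase-glucoamylase, an enzyme that splits glucose from starch fragments, and had 64.1, 67.9 and 54.4 CPM in DG and 0.618, 0.345, 0.211 and 3.73 CPM in CA3. Plekha2, which binds a membrane phosphoinositide, had 105, 97.8 and 87.6 CPM in DG and 1.48, 3.02, 1.80 and 4.05 CPM in CA3. Zdhhc22, of the family of palmitoyltransferases, had 27.7 ± 2.48 CPM (SD, n = 3) in DG and 0.991 ± 0.744 CPM (SD, n = 4) in CA3. Rsph10b, named for the radial spokes of cilia, had 75.9 ± 5.57 CPM (SD, n = 3) and 2.79 ± 1.72 CPM (SD, n = 4). In all of these the highest CA3 sample was replicate 4, and leaving it out moved the log2 fold change of Mgam to -7.31 and that of AABR07060341.2 to -8.26. Their ranges over the alternatives were -7.31 to -5.56 and -8.47 to -6.50. AABR07060341.2 carries the name of a sequenced clone, and whether reads of other genes are among its counts was not tested.

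On the CA3 side, 7 named genes passed the same rule. Frem3, an extracellular matrix protein, had 97.0, 99.4, 96.4 and 90.1 CPM in CA3 and 0, 1.04 and 0.479 CPM in DG. The CA3 samples differed little among themselves and all were far above DG, at a log2 fold change of 7.14 ± 0.37 (SE), with an adjusted p of 3.82e-12. The value depended on the few counts in DG, with 8.28 without the summed DG pair and 6.80 without DG replicate 1. In CA2 it had 8.07 ± 0.923 CPM (SD, n = 3) and in CA1 0.723 ± 0.859 CPM (SD, n = 4), and it was higher in CA3 than in either (log2 fold changes 3.57 ± 0.26 SE and 7.46 ± 0.35 SE). Mx1, an antiviral GTPase induced by interferon, had 39.0, 21.4, 42.2 and 19.4 CPM in CA3 and 0, 0.974 and 0.719 CPM in DG. Replicates 1 and 3 were higher than replicates 2 and 4, and none overlapped DG, at a log2 fold change of 5.42 ± 0.44 (SE), with an adjusted p of 3.09e-09 and a range of 5.08 to 6.07 over the alternatives. Since Mx1 has a close relative in the genome, its counts are uncertain as to which copy they came from.

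Gjd2, which encodes connexin 36, the main gap junction protein of neurons, had 27.8, 23.7, 22.3 and 21.1 CPM in CA3 and 0.911, 1.88 and 1.56 CPM in DG (log2 fold change 3.91 ± 0.26 SE, with an adjusted p of 1.53e-10, range over the alternatives 3.73 to 4.97). It was also higher in CA3 than in CA1 (3.30 ± 0.22 SE) and CA2 (2.73 ± 0.23 SE). Fxyd7, a small regulator of the sodium pump in brain, had 71.9, 87.5, 66.3 and 73.7 CPM in CA3 and 8.92, 7.92 and 13.4 CPM in DG (log2 fold change 2.90 ± 0.24 SE, with an adjusted p of 3.36e-09). DG was not without Fxyd7, and its level there was above that of CA1, with a log2 fold change of CA1 over DG of -0.94 ± 0.27 (SE).

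The other 3 genes of that rule are markers of other pyramidal subfields with a middle level in CA3. The CA2 markers Cyp1b1, a cytochrome P450, and Amigo2, an adhesion protein, had 12.7, 25.7, 24.5 and 24.5 and 22.1, 18.3, 20.1 and 20.1 CPM in the CA3 samples against 0.729, 1.10 and 1.80 and 3.28, 3.18 and 3.11 CPM in DG. In CA2 they had 136 ± 21.7 CPM (SD, n = 3) and 125 ± 27.9 CPM (SD, n = 3), above CA3 with log2 fold changes of CA3 over CA2 of -2.63 ± 0.29 (SE) and -2.63 ± 0.24 (SE). Pex5l, a regulator of HCN channels and a CA1 marker, had 39.8, 69.6, 46.9 and 43.3 CPM in CA3 and 21.5, 24.7 and 29.1 CPM in DG (log2 fold change 0.99 ± 0.22 SE, with an adjusted p of 0.00114). Of the 14 CA2 markers, 8 were higher in CA3 than in DG, where 20.6% of all genes were, and 6 were not called. Their summed level was 42.0, 54.5, 54.0 and 61.4 CPM in the CA3 samples, 6.19, 7.01 and 6.95 CPM in DG and 344 to 453 CPM in CA2.

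**Figure D4:**
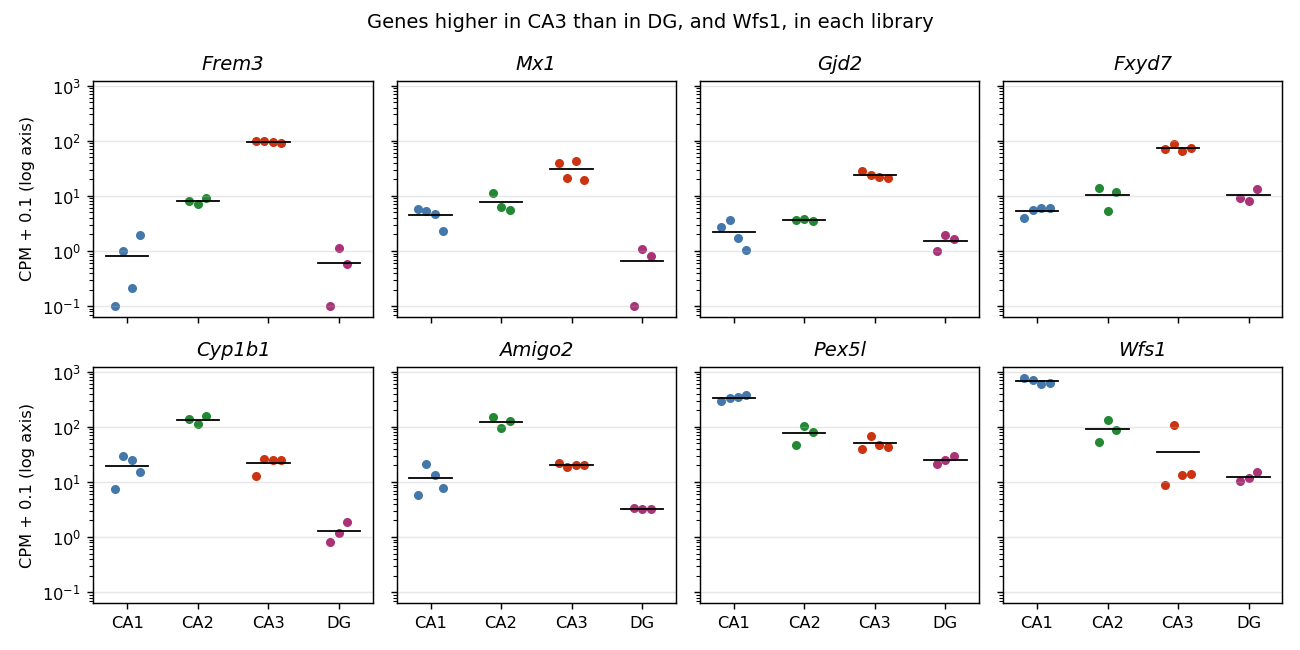
CPM plus 0.1 (log axis) of 8 genes in each of the 14 samples by subfield, 1 point per sample, with the mean as a black line. Frem3 has 4 CA3 samples between 90.1 and 99.4 CPM, and for Wfs1 CA3 replicate 2 stands alone at 106 CPM.

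Among the 34 CA1 markers 10 were called higher in CA3 than in DG, 1 (Htr5b) higher in DG and 23 neither, where 20.6% and 19.7% of all genes were higher in CA3 and in DG, and several of these values depended on CA3 replicate 2. Wfs1, the wolframin gene of the endoplasmic reticulum, had 8.65, 106, 13.4 and 13.8 CPM in CA3 and 10.4, 11.8 and 14.9 CPM in DG. Its log2 fold change was 1.56 ± 0.60 (SE) (adjusted p = 0.0429), and -0.06 without CA3 replicate 2, where the other 3 samples overlapped those of DG. It was called in 12 of 24 alternatives, and not with DESeq2, with CA3 and DG alone or without any 1 of the 3 DG samples. The serotonin receptor genes Htr1b and Htr5b had 0.371, 4.92, 0.423 and 0.486 and 1.48, 6.56, 1.16 and 1.46 CPM in CA3 against 0.729, 1.56 and 0.958 and 6.19, 5.91 and 8.02 CPM in DG. Without CA3 replicate 2 their log2 fold changes went from 0.58 and -1.18 to -1.48 and -2.29, both higher in DG. The call of Htr5b was lost, at log2 fold changes of -1.01, -0.91, -1.03 and -1.06, without CA3 replicate 1, 3 or 4 or DG replicate 3. Met, the receptor of hepatocyte growth factor, was chosen after its values were seen and had 1.48, 10.7, 1.27 and 1.94 CPM in CA3 and 0.364, 0.649 and 0.1198 CPM in DG. It was higher in CA3 in every sample, at 3.23 ± 0.83 (SE) with and 1.76 without replicate 2. The alternatives spanned 1.60 to 4.16, and the call was lost without CA3 replicates 2 and 4 (1.60, adjusted p = 0.0856).

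Ldb2, a cofactor of LIM domain proteins, was called higher in CA3 by a small margin (0.52 ± 0.20 SE, adjusted p = 0.0411), and its CA3 and DG samples overlapped. The call was lost in 9 of 24 alternatives, among them those without CA3 replicate 1 (0.41), 2 (0.43) or 3 (0.52) and without any 1 of the 3 DG samples. Its log2 fold change stayed between 0.41 and 0.66. Of 50 neuromodulator receptors listed 6 were paired. Galr1, the galanin receptor, was higher in CA3 (2.01 ± 0.63 SE, between 1.52 and 3.65 over the alternatives, not called without DG replicate 3). It had 1.73, 0.864, 1.06 and 0.810 CPM in CA3 and 0.182, 0.455 and 0 CPM in DG, so its fold rests on 8 counts in DG. Drd1 and Htr5b were higher in DG, and Htr1b, Drd5 and Casr were not called. Of all genes 20.6% were higher in CA3 and 19.7% in DG. Drd5 had 11 counts in CA3 and 2 in DG, and Casr 13 and 2, so that no fold is given. Ccdc3 completed the 4 paired genes of 12 CA2 markers listed, with Cacng5, Amigo2 and Ntf3, and was not called (0.51 ± 0.61 SE). Wfs1, Pex5l and Htr1b are also among the CA1 markers listed.

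Genes that set CA3 apart from DG without doing so in CA1 or CA2 were the main interest. By the same test 5043 genes (29.4%) differed between CA1 and DG and 6077 (35.4%) between CA2 and DG, and these comparisons share the DG samples with that of CA3. Of the 6911 genes 1520 (8.85% of the genes tested) were not called in either, 704 higher in CA3 and 816 higher in DG. A p that misses the threshold does not show that CA1 and CA2 were like DG, so CA3 was also tested against them directly. CA3 differed from CA1 in 4253 genes (24.8%) and from CA2 in 1313 (7.65%). Of the 1520 genes 163 (0.949% of the genes tested) differed from both in the direction of the DG comparison, 87 higher in CA3 with a median log2 fold change of 0.90 over DG and 76 lower with a median of -0.86. Past 4-fold there were 21 and 6 of them. Of those, only Hcrtr2 (higher in CA3) and ENSRNOG00000001843 (lower) had a mean of at least 10 CPM in CA3 or DG. The count was 161 without CA3 replicate 4 (133 genes in common), 150 without replicate 2 (124 in common) and 119 without replicate 3 (109 in common), and it fell to 104 without the summed CA2 pair. It rose to 204 with the 16 libraries unsummed (142 in common), and over all alternatives it lay between 104 and 244.

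Of the 163 genes 7 have a symbol, all higher in CA3 and all on the study's list of CA3 markers. Symbols were paired through the marker lists only, so the direction of these 7 was fixed by the choice. All 7 kept the pattern of differing from DG in CA3 alone in each of 23 alternatives that test it. Hcrtr2, the orexin receptor type 2, was the paired gene with at least 10 CPM. It had 13.8, 15.98, 13.1 and 12.8 CPM in CA3, 0.182, 1.10 and 0.838 CPM in DG, 1.24, 1.75, 0.927 and 1.86 CPM in CA1 and 1.56, 1.24 and 1.34 CPM in CA2. CA3 stood above the other subfields in every sample, while these lay close to each other. The log2 fold change over DG was 4.06 ± 0.29 (SE), with an adjusted p of 4.99e-10, and over CA1 and CA2 it was 3.32 ± 0.25 (SE) and 3.35 ± 0.27 (SE).

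The other 6 were below 10 CPM and are described although outside the rule. Bhlhe23, a basic helix-loop-helix factor, had 6.67, 8.20, 7.72 and 7.94 CPM in CA3 and 0.182, 0.325 and 0 CPM in DG, with no count in 3 of 4 CA1 and 2 of 3 CA2 samples (log2 fold change over DG 5.15 ± 0.46 SE, with an adjusted p of 1.24e-08). Col8a2, a collagen chain, had 6.05, 4.32, 10.9 and 8.75 CPM in CA3 and 0.182, 0.779 and 0.1198 CPM in DG (log2 fold change 3.98 ± 0.54 SE, with an adjusted p of 4.36e-06). Both values rest on few DG counts, and over the alternatives they lay between 4.67 and 6.42 for Bhlhe23 and between 3.59 and 5.51 for Col8a2, each highest without the summed DG pair. Cyp26b1, which breaks down retinoic acid, had 4.20, 4.49, 7.30 and 6.48 CPM in CA3 against 0.729, 1.30 and 1.20 CPM in DG (log2 fold change 2.28 ± 0.33 SE, with an adjusted p of 1.28e-05). Fermt1, an activator of integrins, had 4.57, 2.33, 1.27 and 2.92 CPM in CA3 and 0, 0.260 and 0.1198 CPM in DG, at 3.93 on the log2 scale and 3.54 to 4.96 over the alternatives. The olfactory receptor gene Olr1353 (2.21 ± 0.500 CPM, SD, n = 4 in CA3, 0.105 ± 0.0983 CPM, SD, n = 3 in DG) and the class I histocompatibility gene RT1-M6-1 (4.33 ± 1.28 CPM, SD, n = 4 in CA3, 0.535 ± 0.331 CPM, SD, n = 3 in DG) belong to large families of like sequence, so that their counts may include reads of relatives.

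**Figure D5:**
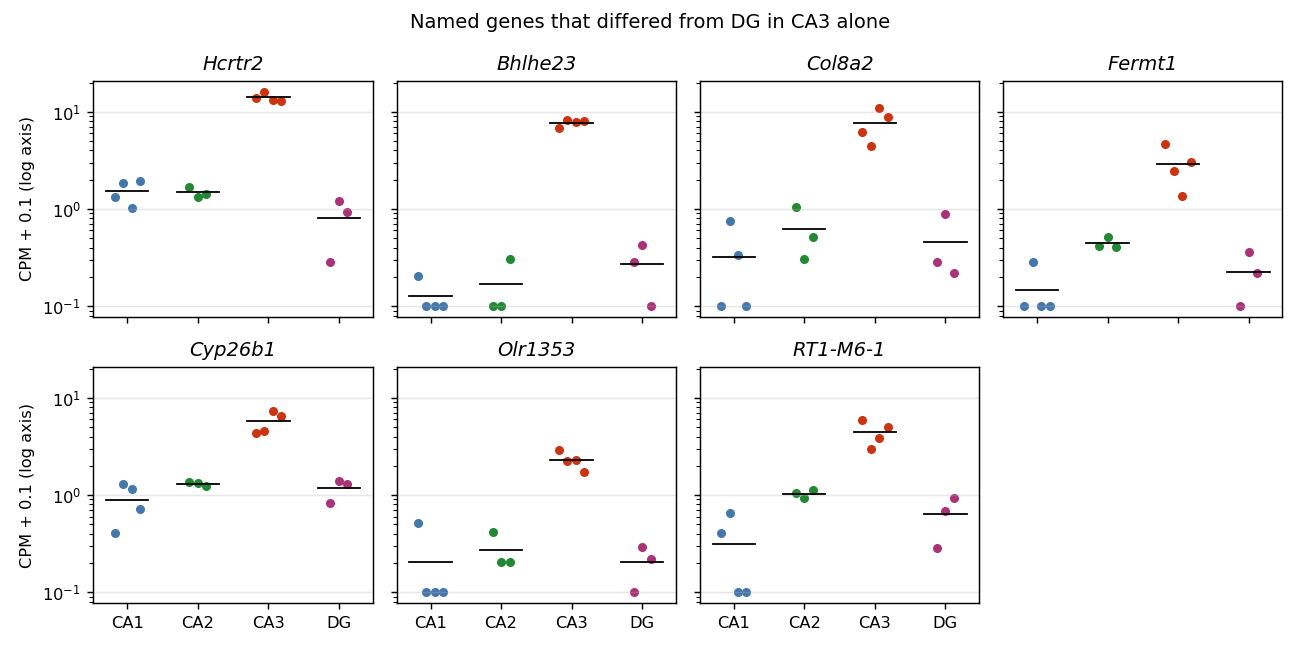
CPM plus 0.1 (log axis) of the 7 named genes that differed from DG in CA3 and not in CA1 or CA2, in each of the 14 samples by subfield, with the mean as a black line. The 4 CA3 samples stand above all others in each gene, as for Hcrtr2 at 13.8, 15.98, 13.1 and 12.8 CPM. All 7 are CA3 markers of the study, so this direction was fixed by the choice.

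The other 7 CA3 markers missed the pattern because CA1 or CA2 differed from DG as well. Frem3 and Gjd2 were higher in CA2 than in DG (log2 fold changes 3.57 ± 0.44 SE and 1.18 ± 0.31 SE), and Mx1 was higher in both CA1 (2.73 ± 0.51 SE) and CA2 (3.38 ± 0.50 SE). Tacr2, the neurokinin A receptor, had 6.18, 4.84, 2.01 and 3.08 CPM in CA3 and 0.182, 0.325 and 0 CPM in DG, and it was also higher in CA2 than in DG (2.06 ± 0.71 SE). Vgll3, a cofactor of TEAD transcription factors, had 16.3, 12.7, 15.1 and 20.3 CPM in CA3 and 0.182, 1.30 and 0.719 CPM in DG, a log2 fold change of 4.16 ± 0.38 (SE), with an adjusted p of 1.65e-08 and a range of 3.86 to 4.93 over the alternatives. Vgll3 was called lower in CA2 than in DG (adjusted p = 0.0207). The CA2 samples, at 0, 0.206 and 0.206 CPM, were below the worth of 3 counts, and DG replicate 1 lay among them. No fold is given for this difference. Arhgap36 had 1.98, 1.81, 1.48 and 0.810 CPM in CA3 and no count in any DG sample, which makes it at least 4.14-fold higher in CA3, with 3 counts per sample taken as the DG level. Fxyd7 was lower in CA1 than in DG.

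None of the 76 genes that were lower in CA3 alone has a symbol. Since symbols were paired only for genes chosen as high in a subfield over each other subfield, this too follows from the choice. Of the genes without a symbol and with at least 10 CPM, the 2 with the largest log2 fold change in each direction are given by identifier, chosen after their values were seen. ENSRNOG00000001843 had 5.68, 8.38, 7.19 and 10.2 CPM in CA3 and 38.8, 34.1 and 43.8 CPM in DG. Its level was 37.5 ± 6.07 CPM (SD, n = 4) in CA1 and 33.2 ± 4.27 CPM (SD, n = 3) in CA2, so that CA3 was the low subfield, at a log2 fold change over DG of -2.31 ± 0.17 (SE), with an adjusted p of 6.94e-10. ENSRNOG00000023492 had 2.97, 5.35, 3.70 and 5.35 CPM in CA3 and 12.4, 16.2 and 16.9 CPM in DG, a log2 fold change of -1.82 ± 0.23 (SE), with an adjusted p of 1.57e-06. In the other direction ENSRNOG00000018070 had 20.6, 24.0, 22.2 and 22.2 CPM in CA3 and 6.92, 5.65 and 8.14 CPM in DG (1.71 ± 0.16 SE on the log2 scale). ENSRNOG00000018092 had 54.2, 35.7, 50.01 and 37.3 CPM in CA3 and 16.2, 15.97 and 11.98 CPM in DG (1.59 ± 0.19 SE), and its adjusted p of 0.0574 for CA1 and 0.0719 for CA2 against DG lay just past the threshold.

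Where CA3 stood between DG and the other pyramidal layers differed from gene to gene. Of the 226 DG markers 20 were higher in CA3 than in both CA1 and CA2, against 2.69% of all genes tested, and 5 were lower than in both, against 2.57%. Against CA1 alone 36 were higher and 21 lower in CA3, where 12.7% and 12.1% of all genes were, and against CA2 alone 26 and 17, where 3.48% and 4.16% were. Without CA3 replicate 4, in which DG markers were raised, the counts for both were 17 and 9. They were 12 and 10 without replicates 2 and 4, and 11 and 4 without CA2 replicate 3. Without the summed CA2 pair they were 16 and 3. Same-numbered CA3 samples correlated with those of CA1 and CA2, although for CA1 an unlike-numbered pair reached 0.217. With the replicate number as a block the counts were 20 and 9 or 20 and 8, depending on the block of the summed pairs.

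The 20 genes include Unc13c, C1ql2, Sema5a, Unc5d, Trpc6 and Plk5. C1ql2 had 1.01 ± 0.253 CPM (SD, n = 4) in CA1 and 2.12 ± 2.55 CPM (SD, n = 3) in CA2 against 6.93 ± 1.28 CPM (SD, n = 4) in CA3. The summed CA2 pair stood apart from the other CA2 samples at 5.05 CPM, below every CA3 sample, and the log2 fold change of CA3 over CA1 was 2.71 ± 0.43 (SE), with an adjusted p of 6.57e-05. Sema5a stood at 57.4 ± 8.97 CPM (SD, n = 4) in CA1 and 177 ± 39.1 CPM (SD, n = 4) in CA3, a log2 fold change of 1.64 ± 0.14 (SE), with an adjusted p of 2.23e-08. Kitlg, the ligand of the receptor Kit, had 13.8, 10.9, 13.1 and 14.7 CPM in CA3, 109, 93.9 and 84.3 CPM in DG and 5.97 ± 1.09 CPM (SD, n = 4) in CA1. The giant cadherin Fat4 had 67.0, 95.3, 79.5 and 125 CPM in CA3, 597, 855 and 789.8 CPM in DG and 40.8 ± 6.56 CPM (SD, n = 4) in CA1. In these 4 genes CA3 lay above CA1 in each sample and yet below every DG sample.

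Without a block, the 5 genes lower in CA3 than in CA1, CA2 and DG were Adcy1, Drd1, Rgs9, Ptchd1 and Usp13. Adcy1 had 81.9 ± 17.2 CPM (SD, n = 4) in CA1, 135 ± 18.8 CPM (SD, n = 3) in CA2 and 47.4 ± 21.2 CPM (SD, n = 4) in CA3, and its log2 fold change of CA3 over CA2 was -1.52 ± 0.24 (SE), with an adjusted p of 1.71e-04. Rgs9, which speeds the return of G proteins to rest, had 0.618, 0.518, 0.634 and 0.972 CPM in CA3 against 2.92 ± 0.231 CPM (SD, n = 4) in CA1 and 19.4 ± 2.38 CPM (SD, n = 3) in DG. Ptchd1, a membrane protein related to the Hedgehog receptor, had 2.59, 3.02, 3.49 and 2.11 CPM in CA3 and 7.51 ± 1.48 CPM (SD, n = 4) in CA1. Usp13, a deubiquitinase, had 5.31, 8.98, 6.45 and 9.24 CPM in CA3 and 22.3 ± 2.32 CPM (SD, n = 4) in CA1. Pdyn, too, was lower in CA3 than in CA1 (10.5 ± 1.18 CPM, SD, n = 4), with a log2 fold change of -2.39 ± 0.37 (SE), with an adjusted p of 4.21e-05, and was not called between CA3 and CA2.

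The promoters of 4 of these genes are shown, 2 higher in DG and 2 higher in CA3, picked by the motifs they hold. The windows are from RefSeq on the GRCr8 assembly, from 250 bases before to 50 bases after the start, 300 bases each, and 201 of the 288 symbols had such a window. The files were counted on another build. Cartpt (chr2:32991186-32991485 on the minus strand) and Btg2 (chr13:48087641-48087940 on the minus strand) hold the cyclic AMP response element TGACGTCA, which reads the same on both strands and is in capitals. They are the 2 of 155 DG markers with a window that hold it (1.29%), against 612 of 33469 windows in all (1.83%). Frem3 (chr19:44271088-44271387 on the minus strand) and Bhlhe23 (chr3:188268737-188269036 on the minus strand) hold the E-box CAGCTG, in capitals, which also reads the same on both strands and is bound by basic helix-loop-helix factors. It was present in 3 of 12 CA3 markers, in 24 of 155 DG markers (15.5%) and in 15.1% of all windows. A match is a description of the letters and not a site of binding.
Cartpt: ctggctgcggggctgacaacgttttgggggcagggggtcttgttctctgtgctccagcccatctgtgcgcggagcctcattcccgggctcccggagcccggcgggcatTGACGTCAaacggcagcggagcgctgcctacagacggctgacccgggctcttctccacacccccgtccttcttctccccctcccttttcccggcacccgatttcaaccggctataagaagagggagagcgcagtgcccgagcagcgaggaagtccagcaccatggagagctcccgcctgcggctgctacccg
Btg2: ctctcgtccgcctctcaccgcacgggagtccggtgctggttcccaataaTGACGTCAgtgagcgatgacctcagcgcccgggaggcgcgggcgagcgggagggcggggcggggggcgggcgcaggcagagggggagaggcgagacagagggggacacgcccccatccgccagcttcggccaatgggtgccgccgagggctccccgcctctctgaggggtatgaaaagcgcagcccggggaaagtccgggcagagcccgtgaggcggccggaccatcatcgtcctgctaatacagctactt
Frem3: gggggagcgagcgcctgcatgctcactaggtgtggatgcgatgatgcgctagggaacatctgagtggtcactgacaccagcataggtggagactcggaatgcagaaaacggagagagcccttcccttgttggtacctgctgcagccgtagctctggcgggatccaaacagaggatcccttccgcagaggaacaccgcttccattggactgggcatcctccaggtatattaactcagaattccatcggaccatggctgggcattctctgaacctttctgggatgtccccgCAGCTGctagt
Bhlhe23: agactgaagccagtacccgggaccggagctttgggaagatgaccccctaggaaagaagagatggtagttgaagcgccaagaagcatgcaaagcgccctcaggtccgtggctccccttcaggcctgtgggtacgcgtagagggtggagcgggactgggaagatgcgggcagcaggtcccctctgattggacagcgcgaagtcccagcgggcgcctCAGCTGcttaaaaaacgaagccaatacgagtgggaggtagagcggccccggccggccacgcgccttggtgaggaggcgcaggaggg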

How the data were processed

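The authors aligned reads of stranded total RNA to Rnor6 with STAR and deposited a raw count for every gene and library. The counting program and its strand setting are not given in the sources used here, so counts of overlapping and antisense genes are uncertain. The tables of the authors' own comparisons, which hold log2 fold changes and p-values for pairs of subfields, were not used. Members and lists were chosen with earlier results of these data known. Of 664 symbols listed, 40 could be paired, some of which are not reported here.

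Genes with more than 10 counts over all libraries (17174 of 32883) entered a quasi-likelihood fit with edgeR 4.0.16, limma 3.58.1 and R 4.3.3, with 1 coefficient per subfield, TMM normalization and Benjamini-Hochberg adjustment. Its common dispersion was 0.0189. The standard error is the log2 fold change divided by the square root of F. Plots were drawn with Python 3.11.15 and matplotlib 3.10.9. Libraries ranged from 3216512 to 11933279 counts, so low genes are less precise in small libraries. The study used 4 rats for the 16 libraries, so the layers share rats. The labels do not tie libraries to rats, and p-values measure the spread between libraries.

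Genes were named by rule: in each direction the 12 with the largest log2 fold change among called genes with a symbol, at least 20 CPM in the higher layer, no overlap of samples and a call also without CA3 replicate 3, up to 8 of at least 10 CPM that differed from DG in CA3 alone, and members of the lists. Others were chosen after their values were seen. Alternatives were 16 unsummed libraries, median-of-ratios size factors, DESeq2 1.42.0, no filter, filterByExpr, CA3 and DG alone, replicate blocks, thinning to the lowest total and leaving out each library. Leaving out CA3 replicates 2 and 4 together was added after seeing the data. The procedure was tested on simulated data.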

Additional observations from a re-analysis of the deposited data

Results flagged for a closer look

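In each gene or sum described for CA3, the sample farthest from its neighbour was compared with the range of the 4 samples by Dixon's ratio. Of the 74 sets of values chance would mark about 1 in 20 if they were independent and normal. The values were CPM, and single markers are also part of the sums, so the number marked was not weighed against that rate. The ratio marked 11, of which 6 were CA3 replicate 2, 4 were replicate 4 and 1 was replicate 1.

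CA3 replicate 2 was high for CA1 markers. Its sum over 34 CA1 markers was 336 CPM, with the next sample at 146 CPM. Wfs1 stood at 106 CPM there with the next sample at 13.8 CPM, Met at 10.7 CPM (next 1.94), Htr5b at 6.56 CPM (next 1.48), Htr1b at 4.92 CPM (next 0.486) and Drd5 at 0.777 CPM (next 0.124).

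CA3 replicate 4 was high for DG markers. Pdyn stood at 5.83 CPM there with the next sample at 1.30 CPM, Mgam at 3.73 CPM (next 0.618), Zdhhc22 at 2.11 CPM (next 0.634) and AABR07060341.2 at 0.648 CPM (next 0.106). The DG samples were far above these values in each of the 4 genes. Cyp1b1, a CA2 marker, was low in CA3 replicate 1 at 12.7 CPM, with the next sample at 24.5 CPM. The cause of these values was not tested.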

How the results depend on the processing

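The 6911 genes that differed between CA3 and DG numbered between 5624 (libraries thinned to the lowest total) and 7798 under the alternatives. Leaving out single libraries gave 5722 to 7103 in all, 2791 to 3610 higher in CA3 and 2904 to 3554 higher in DG. The genes that differed in CA3 alone (163) numbered 104 to 170 then, with the lowest value, 104, without the summed CA2 pair, and the cause was not tested. The 1520 genes before the tests of CA3 against CA1 and CA2 ranged from 1134 to 1954 then. With DESeq2 the counts were 6537 and 169, and without CA3 replicates 2 and 4 they were 6135 and 148. Of 69 genes described, 60 kept their call and direction between CA3 and DG under the 24 alternatives. The log2 fold change of Wfs1 ranged from -0.0599 without CA3 replicate 2 to 1.85 without CA3 replicate 1, and that of Htr1b from -1.48 without CA3 replicate 2 to 1.01 without the summed DG pair, over single libraries left out. Without CA3 replicates 2 and 4 they were -0.168 and -1.56, and Htr1b was at 1.16 after thinning. Unc13c, Ldb2, Cdh6, Htr5b, Galr1, Casr and Met changed their call under at least 1 of them.

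Taking the replicate number as a replicate block, 7710 genes (3936 higher in CA3, 3774 higher in DG) were called with the summed pairs in block 2 and 7798 (3981 and 3817) in block 4, and 230 and 244 differed in CA3 alone, of which 132 and 123 were among the 163. Unc13c was called in both (-0.90, adjusted p = 0.00351, and -0.51, adjusted p = 0.0287) and Wfs1 was not in block 4 (0.68, adjusted p = 0.237), and the blocks changed no other call between CA3 and DG of the genes described. For single genes the calls of CA3 against CA1 and CA2 are given without a block.

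Whether the numbers pair the samples was checked by the correlation of deviations from the subfield means over 10335 genes. Between CA3 and DG it was 0.628 for replicates 1 and -0.07 for replicates 3, and -0.08 and 0.207 for CA3 replicates 2 and 4 with the summed DG pair, so the numbers were not taken to pair CA3 with DG. CA3 replicates 2 and 4 both correlated best with DG replicate 3 (0.380 and 0.243). Between CA3 and CA1 all 4 pairs were over 0.1 (0.592, 0.196, 0.124 and 0.256), and so were those between CA3 and CA2 (0.658 and 0.205, with 0.304 and 0.484 for the summed pair). Unlike-numbered pairs of CA3 with CA1 ranged from -0.384 to 0.217, and those of CA3 with CA2 from -0.531 to 0.165. The value of 0.217, for CA3 replicate 4 with CA1 replicate 3, was above the same-numbered values of replicates 2 and 3. The count of genes that differed in CA3 alone rests on the comparisons of CA3 with CA1 and CA2 too, and it depends on whether the block is used.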
